A study of Bos taurus with 15 samples.

Results

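The mammary CpG sites at which individual heifers differed most numbered 215 of 8335, or 2.58%. They were chosen on levels alone: a cytosine position on chromosomes 1 to 29 was taken when it had 20 or more reads in each of 6 heifers and when the methylation level of the highest heifer exceeded that of the lowest by 35 percentage points or more, whatever the maternal treatment. A read call is 1 methylated or unmethylated reading of the cytosine in 1 read, and the level is the percent of calls that were methylated. Because the range chose the sites, every range below is a description and carries no test.

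The heifers were Holsteins, biopsied in the mammary gland on day 21 of their first lactation. Their dams, dry pregnant cows in shaded pens, either received fans and water soakers (cooled) or no active cooling (heat stressed) during the last 6 to 7 weeks of gestation. Daughters of cooled dams form the group IUCL-H (3 heifers) and daughters of heat stressed dams the group IUHT-H (3 heifers). After birth all heifers were housed and managed together. Numbers 1 to 3 within a group follow record order and only name the animal. The reduced representation bisulfite libraries held 13949097 to 20240625 CpG calls each, at a median of 1 call per position, so that a position with 20 reads in all heifers belonged to the deepest 0.231% to 0.305% of each file. The same assay on liver of 9 bull calves at birth (IUCL-B, n = 5; IUHT-B, n = 4) was used here only to look up the same positions.

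Methyl groups on the cytosine of a CpG are copied to the new strand after DNA replication, so the cytosines on both strands of a CpG and those of neighboring CpGs usually carry like levels. A variant with T in place of the cytosine reads as unmethylated after bisulfite conversion, and an animal with 1 variant allele can then appear near the middle of the scale. Between animals, levels can also differ through the mix of cell types in a biopsy, and a lactating gland holds secretory epithelium together with stroma, vessels and immune cells. A level is an average over all cells sampled, and a different mix of cells cannot be told apart from a different level within 1 cell type.

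The 215 sites had a median range of 39.9 points and a maximum of 85.5 points, against a median of 12.2 points over all 8335 sites. They lay at middle levels: the mean over the 6 heifers had a median of 49.9% and ran from 15.7% to 86.3%, while the median over all sites was 76.1%. Between 20% and 40% mean methylation, 65 of 597 sites (10.9%) were variable, compared with 5 of 3548 (0.141%) between 80% and 100%. The share of variable sites also fell with depth. Of the sites whose shallowest heifer had 20 to 29 reads, 141 of 2605 (5.41%) were variable, and of those with 100 or more reads 4 of 1586 (0.252%). The median depth of the shallowest heifer was 25 reads at variable sites and 41 reads over all sites.

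**Figure D1:**
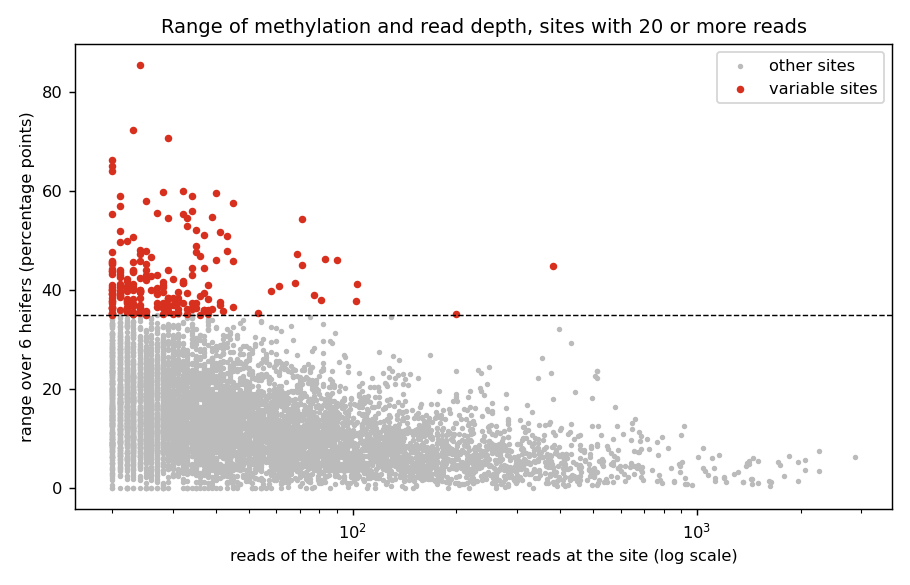
Each point is 1 of 8335 sites with 20 or more reads in every heifer, placed by the reads of its shallowest heifer (x, log scale) and by the range of methylation over 6 heifers (y, percentage points). The 215 variable sites (red) lie on or above the dashed line at 35 points, and most have under 50 reads in the shallowest heifer.

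Counting error was set beside the range as a description, since the same levels chose the sites. The exact (Clopper-Pearson) 95% intervals of the lowest and the highest heifer overlapped at 34 of 215 sites (15.8%) and did not touch at the other 181, compared with 1304 of all 8335 sites. These intervals cover counting error only, since reads amplified by PCR and not marked with identifiers can copy 1 molecule. Spread between heifers relative to binomial counting noise, a ratio that is near 1 when heifers differ by counting noise alone, had a median of 3.97 at the variable sites (quartiles 2.75 and 7.82) and 1.28 over all sites.

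The threshold itself fell in a continuous distribution. On chromosome 11 at position 107292153 (all coordinates are UMD3.1.1, 1-based) the range was 35 points, from 15.0% in IUCL-H 3 to 50.0% in IUCL-H 1, both at 20 reads. At position 1037181 of chromosome 3, where the range was also 35 points, the levels were 40%, 75% and 64.6% in IUCL-H 1 to 3 and 44.3%, 66.0% and 57.4% in IUHT-H 1 to 3. Just outside the threshold were position 28922786 of chromosome 27 (51.9% to 86.8%, a range of 34.99 points) and position 103657451 of chromosome 4 (20.4% to 55.3%, 34.95 points). No gap separated variable sites from the rest.

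Steps between 0, 50 and 100 percent were rare at the variable sites. A site was called stepped when every heifer lay at 0% to 15%, at 35% to 65% or at 85% to 100%. Stepped levels were present at 6 of 215 variable sites (2.79%), against 34% of all sites with 20 or more reads. None of the 6 occupied all 3 bands, 4 had a single heifer apart from the other 5, and the remaining 209 sites were graded, with 1 or more heifers between the bands. The definition also counts sites with every heifer in the same band, which hold no step. No band is as wide as 35 points, so the range rule leaves such sites out of the variable set. The lower share there follows from the rule, and nothing is read from it.

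Of the stepped sites, position 28618800 of chromosome 27 had the largest range. Its levels were 50.0%, 92.7% and 86.8% in IUCL-H 1 to 3 and 42.3%, 40.6% and 54.3% in IUHT-H 1 to 3, at 35 to 101 reads. IUCL-H 2 and IUCL-H 3 were near 100% and the other 4 heifers near 50%. At position 59500801 of chromosome 10 the levels were 6.90%, 11.1% and 45.3% in IUCL-H and 8.57%, 12.5% and 52.8% in IUHT-H, at 45 to 137 reads. Here 1 heifer of each group, IUCL-H 3 and IUHT-H 3, was near 50% and 4 were near 0.

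IUHT-H 3 stood alone at both of the other stepped sites with large ranges. At position 28498509 of chromosome 27 it was at 15.0% (20 reads), and the other 5 heifers were between 42.9% and 62.8%. At position 41497376 of chromosome 4 it was at 91.7% (36 reads), and the other 5 were between 45.8% and 64.2%. Of these 4 sites, 3 have a listed partner on the opposite strand, but none had 10 or more reads there in both the highest and the lowest heifer. At the nearest other CpG within 100 bp, the highest minus the lowest heifer of the site was 7.19 points for position 28618800. It was -9.12 points for position 28498509, -13.7 for position 59500801 and -11.7 for position 41497376. No genotype was analysed here, and whether a sequence variant sits at any of these cytosines was not tested.

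The sites with the largest ranges were graded. The widest was position 23722389 of chromosome 27, with 53.1%, 100% and 35.2% in IUCL-H 1 to 3 and 52.5%, 69.4% and 14.5% in IUHT-H 1 to 3. IUCL-H 2, at 100%, had 24 reads and IUHT-H 3, the lowest heifer, had 200. At position 103657726 of chromosome 4 the levels were 60.9%, 87.0% and 28.8% in IUCL-H and 40.5%, 67.9% and 14.5% in IUHT-H, and again the shallowest heifer was highest (23 reads) and the deepest lowest (193 reads). Position 89220847 of chromosome 7 read 31.1%, 85.7% and 14.9% in IUCL-H and 42.9%, 57.8% and 31.0% in IUHT-H, at 29 to 135 reads. These 3 were the only variable sites that reached both the band near 0 and the band near 100, and each also had heifers between bands.

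At the next widest of the named graded sites, position 107304135 of chromosome 11, levels were 40.5%, 69.7% and 3.45% in IUCL-H and 27.3%, 44.7% and 55.0% in IUHT-H. IUCL-H 2 was the highest heifer at all 4 of these graded sites, and IUCL-H 3 or IUHT-H 3 the lowest. At the nearest other CpG within 100 bp the same heifers differed by -3.07 points for position 23722389 and 0.53 for position 89220847. For position 107304135 the difference was 26.1 points, and position 103657726 had no such value.

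Seen heifer by heifer, the middle band was the most common place for a variable site in 5 of 6 animals. It held 71 sites in IUCL-H 3 and 98 to 105 in the others, and 72 to 99 sites per heifer lay between bands. The band near 0 held 29 sites in IUCL-H 3 and 26 in IUHT-H 3, against 6 to 13 in the other 4 heifers. Of these, 16 and 9 lay in 1 stretch of chromosome 25, and outside it the counts were 13 and 17, against 4 to 11. The band near 100 held 9 to 19 sites per heifer.

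The extremes were unevenly divided among heifers. IUCL-H 2 was the highest heifer at 77 of 215 variable sites (35.8%), and at 18.4% of all sites. IUHT-H 3 was the lowest at 53 sites (24.7%, against 19.5% of all sites) and the highest at 45 (20.9%, against 16.7%). IUCL-H 3 was the lowest at 43 (20%, against 13.1%) and the highest at 42 (19.5%, against 22.0%). Of the 43, 16 lay in 1 stretch of chromosome 25 (described with the clusters), and outside it IUCL-H 3 was lowest at 27 of 193 sites (14%, against 12.9%). IUCL-H 2 was highest at 57 of these 193 (29.5%, against 18.2%). Median reads over the 215 sites were lowest in IUHT-H 3 (36) and IUCL-H 2 (39). They were 45 in IUCL-H 1, 48 in IUCL-H 3, 40 in IUHT-H 1 and 53 in IUHT-H 2. Fewer reads give more counting error, and the part of depth in which heifer was extreme was not tested. The mean level over variable sites was 56.9% in IUCL-H 2 and 47.4% to 50.8% in the other 5 heifers. Outside the chromosome 25 stretch it was 56.4% and 49.2% to 54.6%. Over all 8335 sites the heifers' means lay between 68.1% and 69.7%, so IUCL-H 2 was not set apart across the tested sites as a whole.

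The pair at the top or bottom of a site came from the same group or from both. IUCL-H 1 and IUCL-H 2 were the highest pair at 32 variable sites (14.9%, against 6.99% of all sites), of which 15 lay in the chromosome 25 stretch. Outside it the pair was highest at 17 of 193 (8.81%, against 6.75%). Over the whole set IUCL-H 2 and IUHT-H 2 were highest at 26 (12.1%, against 5.48%), and IUCL-H 3 and IUHT-H 1 lowest at 25 (11.6%, against 6.99%). Other pairs fell below their share of all sites, such as IUCL-H 1 and IUHT-H 2, highest at 5 (2.33%, against 6.99%). IUCL-H 3 and IUHT-H 3 were the highest pair at 27 variable sites and the lowest pair at 27 others, together 25.1% of the set, while the same pair was at one end or the other at 13.4% of all sites. Over the whole set IUCL-H 3 and IUHT-H 3 still differed by a median of 17.5 points. Outside the chromosome 25 stretch this pair was highest at 27 sites (14%, against 7.81%) and lowest at 12 (6.22%, against 5.39%). The median absolute difference at variable sites ran from 11.2 points (IUCL-H 1 and IUHT-H 2) to 27.2 points (IUCL-H 2 and IUHT-H 3). Between-group pairs had a median of 17.1 points (9 pairs) and within-group pairs 15.9 points (6 pairs, 12.7 to 18.6), so the between-group pairs spanned a range that included the within-group pairs.

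**Figure D2:**
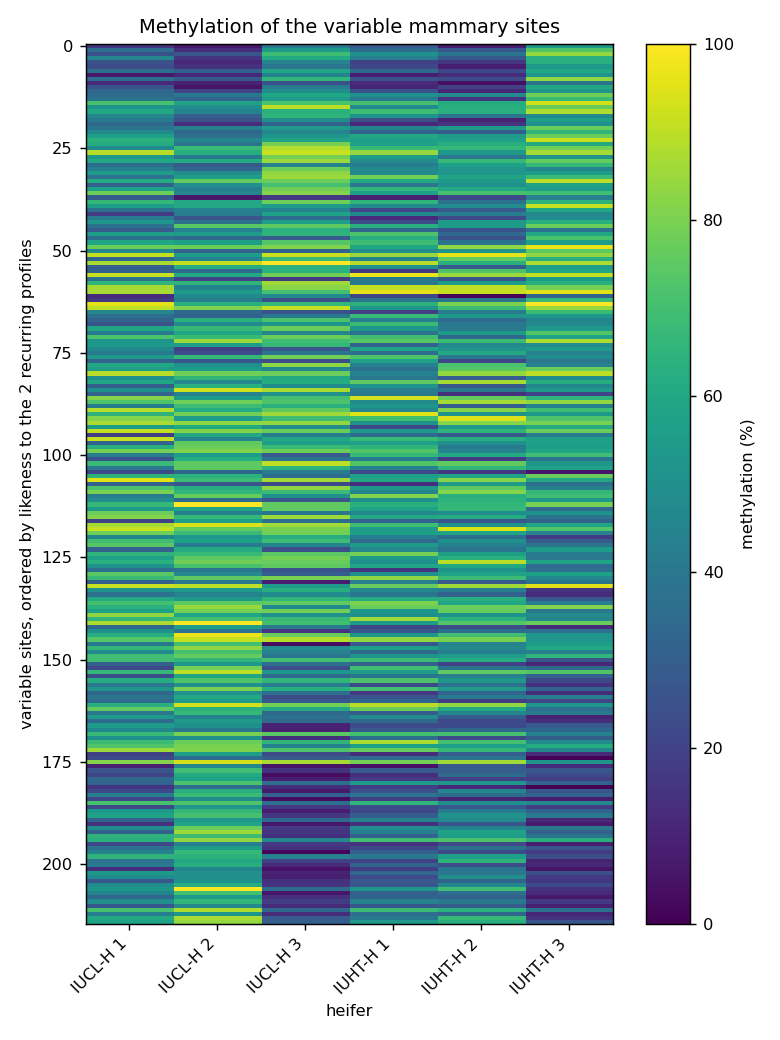
Rows are the 215 variable sites and columns the 6 heifers, with color giving the methylation level (percent). Rows run from sites whose profile over heifers resembled the most deeply read variable site on chromosome 5 (top, high in IUCL-H 3 and IUHT-H 3) to sites that resembled the largest cluster on chromosome 25 (bottom, high in IUCL-H 2 and low in IUCL-H 3 and IUHT-H 3).

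Variable sites were spread over 26 chromosomes and over 69 of the 635 windows of 1 Mb that held a tested site. Chromosomes 19, 21 and 23 had none among 109, 187 and 89 tested sites. Chromosome 25 had 23 among 159 (14.5%), the highest share, and no other chromosome exceeded 5.75%. The 4 windows with the most tested sites held 27.0% of tested sites and 25.6% of variable sites. Sites with another variable site within 1 kb, leaving aside the opposite strand of the same CpG, numbered 73 (34.0%), and 60 had one within 100 bp. Joined by gaps of up to 1 kb, the set fell into 140 single sites, 16 groups of 2, 3 of 3, and 5 larger clusters. Listed cytosine positions within 100 bp numbered 13 in the median around a variable site and 12 around any tested site.

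Close pairs of variable sites had more alike profiles over the heifers than distant pairs, most of all on chromosome 25. The Pearson correlation of 6 heifers' levels between a pair of variable sites had a median of 0.876 for 72 pairs up to 100 bp apart, 0.751 for 72 pairs from over 100 bp to 1 kb, and 0.423 for 466 pairs from over 1 kb to 100 kb. Beyond 100 kb on the same chromosome it was -0.016, and between chromosomes 0.034 over 21437 pairs. The stretch of chromosome 25 described next supplied 43, 42 and 131 of the pairs in the first 3 distance classes. Outside it the medians were 0.775 (29 pairs), 0.565 (30 pairs) and 0.159 (335 pairs). Likeness differed between clusters too, and a pair of sites on chromosome 3 that starts at position 82819815 correlated at -0.279 (named after its value was seen). Each correlation is across 6 points, and sites under 50 bp apart can lie on the same 50-base reads, so close pairs are not independent.

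The densest stretch lay on chromosome 25 between positions 32366369 and 32472600, 106 kb, where 22 of 30 tested sites were variable. Over all 30 sites, variable or not, the mean level was 42.4% in IUCL-H 1, 55.8% in IUCL-H 2 and 14.2% in IUCL-H 3, and 29%, 34.6% and 21.7% in IUHT-H 1 to 3. IUCL-H 2 was the highest heifer at 26 of the 30 sites and IUCL-H 3 the lowest at 22. The group means were 37.4% ± 21.3 in IUCL-H and 28.4% ± 6.49 in IUHT-H (SD, n = 3 each), and all IUHT-H heifers lay inside the range of the IUCL-H heifers. The largest cluster, 13 variable sites among 18 tested between positions 32373991 and 32374833, had a mean of 47.2%, 59.5% and 14.1% in IUCL-H 1 to 3 and 33.0%, 36.8% and 23.6% in IUHT-H 1 to 3.

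Positions in the same stretch that were too shallow for the rule also had IUCL-H 2 highest and IUCL-H 3 lowest. From position 32366369 to 32374833, 317 other listed positions within 500 bp read 55.8% in IUCL-H 1, 65.3% in IUCL-H 2, 32.4% in IUCL-H 3, 41.1% in IUHT-H 1, 47.3% in IUHT-H 2 and 32.6% in IUHT-H 3, at 1247 to 1977 calls per heifer. The exact intervals of IUCL-H 3 (30.1% to 34.7%) and IUHT-H 3 (30.3% to 34.9%) overlapped. Around positions 32472598 and 32472600, beyond the widest gap, 94 other positions read 46.0%, 58.0% and 11.4% in IUCL-H and 31.5%, 32.3% and 23.2% in IUHT-H. The calls behind the latter were 939, 800 and 6162 in IUCL-H and 1719, 1295 and 10884 in IUHT-H. The heifers with the most calls there, IUHT-H 3 and IUCL-H 3, had the lowest levels, and the part of this difference in depth in the levels was not tested. Some of these positions can share reads with the variable sites.

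**Figure D3:**
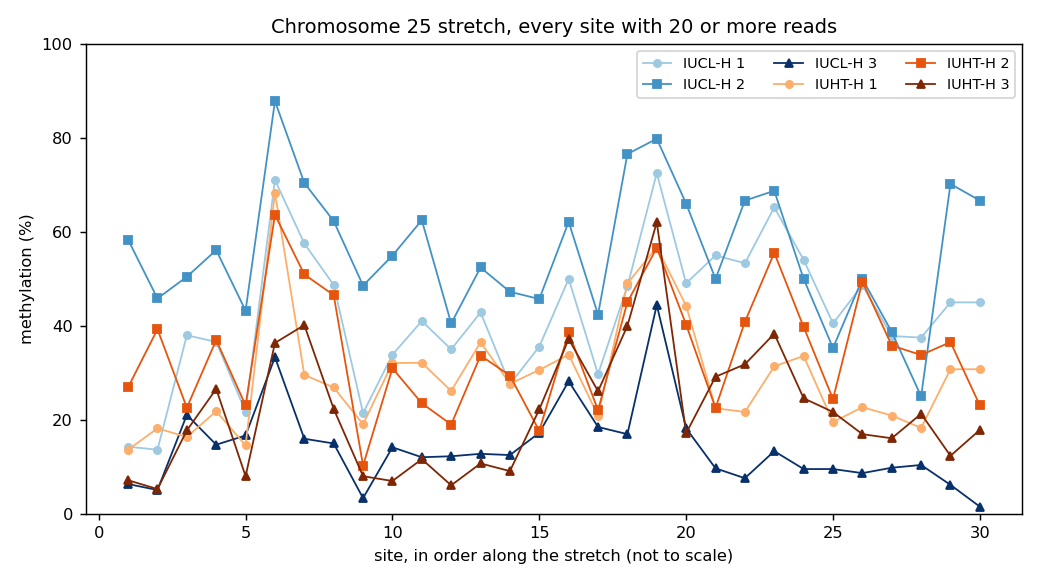
Methylation (percent, y) of each heifer at all 30 sites with 20 or more reads of the chromosome 25 stretch, in order along the chromosome (x, not to scale), with IUCL-H in blues and IUHT-H in oranges and browns. IUCL-H 2 is the highest heifer at 26 sites and IUCL-H 3 the lowest at 22.

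The cluster with the next most variable sites had the same extreme heifers. It lay on chromosome 11 between positions 107304135 and 107304929 (7 variable of 23 tested), with means over its variable sites of 36.1%, 63.1% and 20.8% in IUCL-H 1 to 3 and 31.6%, 41.7% and 34.5% in IUHT-H 1 to 3. Over all 23 sites the means drew together, to 61.2%, 72.5% and 52.1% in IUCL-H and 60.7%, 65.4% and 60.2% in IUHT-H. Over 82 other positions within 500 bp the order did not hold, with 61.1% in IUCL-H 2 and 64.7% in IUCL-H 1. The wider spread at the 7 sites is a description, as their levels chose them.

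The 2 clusters of 5 variable sites had other orders. On chromosome 3 between positions 8107177 and 8108074 (5 variable of 30 tested) the means were 72.3%, 49.1% and 55.8% in IUCL-H and 66.2%, 78.0% and 68.5% in IUHT-H. Over all 30 sites they drew together, to 82.7%, 71.3% and 74.1% in IUCL-H and 76.6%, 84.8% and 77.9% in IUHT-H. Other positions there, at 1151 to 2547 calls per heifer, ran from 74.2% in IUCL-H 2 to 86.1% in IUCL-H 1. On chromosome 7 between positions 56591828 and 56593247 (5 of 13) the means were 68.1%, 66.7% and 68.7% in IUCL-H and 65.3%, 54.6% and 46.7% in IUHT-H. All 3 IUHT-H heifers were below all 3 IUCL-H heifers in that cluster mean, and over all 13 sites (75.9%, 72.7% and 76.4% in IUCL-H, 72.5%, 68.8% and 65.3% in IUHT-H). The 63 other positions nearby read 51.4%, 62.8% and 58.9% in IUCL-H and 56.0%, 52.0% and 61.6% in IUHT-H, with the groups overlapping.

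The 4 variable sites read most deeply, on 4 chromosomes, shared their highest and lowest heifers. These are the sites with 100 or more reads in every heifer, and they were picked out after their values were seen. Position 114145913 of chromosome 5, with 382 to 1002 reads, was at 23.6%, 14.4% and 38.4% in IUCL-H 1 to 3 and at 21.3%, 8.53% and 53.5% in IUHT-H 1 to 3. Position 28773258 of chromosome 27 (200 to 431 reads) was at 11.9%, 9.50% and 25.3% in IUCL-H and at 12.4%, 3.79% and 39.0% in IUHT-H. At this depth the exact intervals of the lowest and highest heifer were far apart, 6.24% to 11.3% against 49.7% to 57.3% on chromosome 5.

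Position 57427843 of chromosome 4 (103 to 264 reads) was at 33.3%, 20.4% and 49.6% in IUCL-H and at 25.4%, 10.9% and 52.2% in IUHT-H. Position 74624913 of chromosome 8 (102 to 398 reads) was at 36.3%, 31.0% and 59.0% in IUCL-H and at 34.2%, 21.6% and 59.4% in IUHT-H. In all 4, IUHT-H 3 was highest, IUCL-H 3 second and IUHT-H 2 lowest, and the groups overlapped. IUCL-H 3 also had the most reads of the 6 heifers at all 4 sites (1002, 431, 264 and 398). IUHT-H 3, the highest in level, had the second most at each (669, 292, 207 and 224). The part of depth in these levels was not tested.

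**Figure D4:**
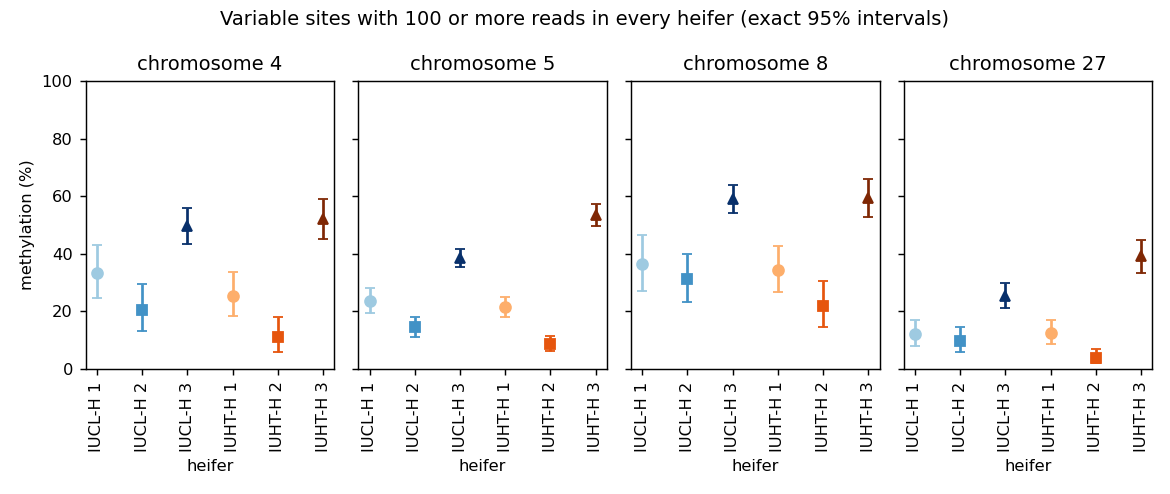
Methylation (percent, y) of each heifer (x) at the 4 variable sites with 100 or more reads in every heifer, 1 panel per chromosome, with exact 95% intervals as bars. IUCL-H 3 and IUHT-H 3 (triangles) are the highest heifers and IUHT-H 2 the lowest in every panel.

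Sites with profiles like that one, and like the chromosome 25 cluster, were present on other chromosomes. Among 199 variable sites on chromosomes other than 5, 19 (9.55%) correlated above 0.8 over the 6 heifers with the deepest site, on 10 chromosomes, against 3.07% of 7936 tested sites, and 11 (5.53%, against 2.81%) were under -0.8. Among the 14 of these sites with 50 or more reads in every heifer, 5 (35.7%) were above 0.8, and 3 of the 5 are the other deep sites described above. None of the 14 was under -0.8. Of 1522 sites there that were not variable and had 100 or more reads, 1.91% were above 0.8 and 1.71% under -0.8. Among 192 variable sites outside chromosome 25, 16 (8.33%), on 7 chromosomes, correlated above 0.8 with the mean of the largest cluster, against 2.51% of 8176. Another 9 (4.69%, against 3.09%) were under -0.8. Among the 11 of these sites with 50 or more reads in every heifer, 0 were above 0.8 and 1 (9.09%) was under -0.8. Of 1557 sites that were not variable and had 100 or more reads, 1.48% were above 0.8 and 2.70% under -0.8. Among all 21437 pairs of variable sites on different chromosomes, 5.23% correlated above 0.8, so part of the excess over all tested sites is shared by variable sites in general. Sites of the same cluster were counted separately. The 2 profiles were inversely related to one another (r = -0.677 over 6 heifers). Both were chosen as references after their values were seen, and a correlation over 6 points is a description.

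Read depth itself showed a weak relation to level across the set. With reads scaled by each heifer's median depth, the correlation between log2 reads and level over the 6 heifers had a median of 0.14 at variable sites and -0.02 over all sites. It exceeded 0.8 at 24 variable sites (11.2%, against 4.09% of all sites) and was under -0.8 at 10 (4.65%, against 3.87%). The heifer with the most scaled reads was the highest in level at 43 variable sites (20%, against 13.1% of all sites) and the lowest at 29 (13.5%, against 14%).

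Reads of the opposite strand give a measure of the same CpG from other reads. At 54 variable sites the opposite cytosine of the same CpG had 10 or more reads in both the highest and the lowest heifer. The difference there went the same way at 41 sites, the other way at 10 and was 0 at 3. Its median was 9.61 points, where the sites themselves had a median range of 38.7 points. Over 1549 tested sites of any range, 59.7% went the same way, with a median of 2.04 points. At 6 of the 54 the opposite cytosine was itself chosen by the rule. Without these 6, 35 of 48 went the same way, at a median of 8.33 points. Without IUCL-H 2, 32 of 55 (58.2%) went the same way, against 57.3% of all sites, and the median was 5.15 points against 1.62 over all sites.

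The same values were split by whether another variable site lay within 1 kb, leaving out positions that were themselves chosen. With another one, 20 of 25 went the same way on the opposite strand, at a median of 11.5 points. Alone within 1 kb, 15 of 23 went the same way, at a median of 2.81 points, where these sites' own median range was 38.4 points. At the nearest other CpG within 100 bp, which may lie on the same reads, the difference went the same way at 112 of 163 sites with a median of 5.09 points. Over 7609 tested sites 61.0% went the same way, at a median of 1.78 points. It was 16.5 points for clustered sites (39 of 48, 81.3%, the same way) and 3.78 points for solitary ones (73 of 115, 63.5%, near the share of all sites). The split itself uses the range of nearby sites, so the contrast between clustered and solitary sites is a description.

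**Figure D5:**
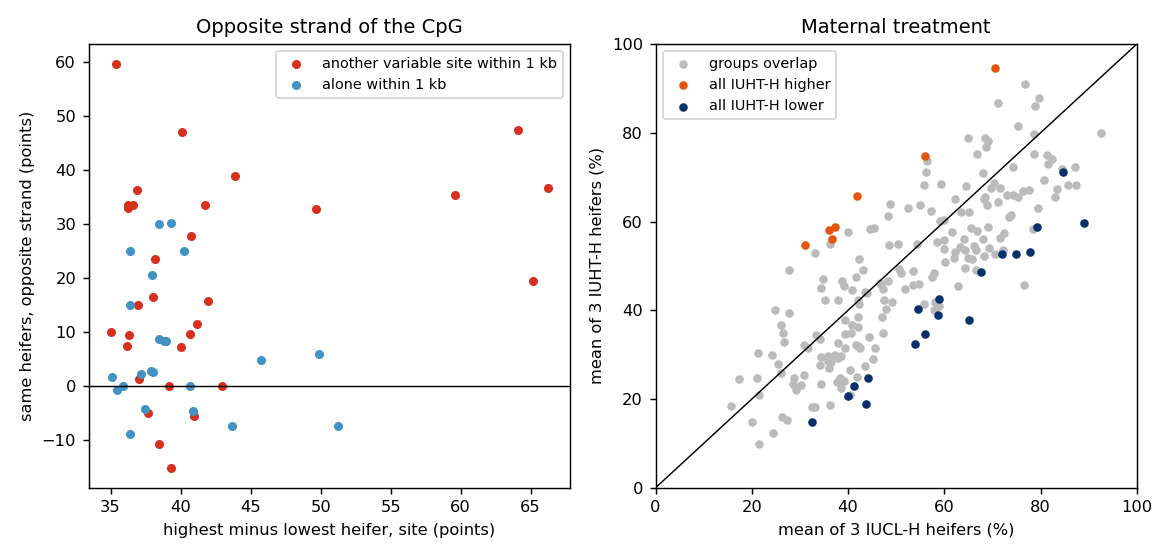
Left, for 54 variable sites, the level of the highest minus the lowest heifer at the site (x, points) and of the same heifers at the opposite cytosine of the CpG (y, points), with sites that have another variable site within 1 kb, on either strand, in red. Points of both colors lie on both sides of 0. Right, the mean level of the 3 IUCL-H heifers (x, percent) and of the 3 IUHT-H heifers (y, percent) at all 215 sites, with the 7 sites at which every IUHT-H heifer was higher in orange and the 18 at which every one was lower in dark blue.

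The share of variation that lay between the maternal treatment groups was near that of all tested sites, and it rose above theirs only without IUCL-H 3. This share, the between-group over the total sum of squares of 6 levels, had a median of 11.6% (quartiles 3.1% and 30.5%) at variable sites and 14.4% over 8274 tested sites. Without IUCL-H 3 the median was 25.1% (over all tested sites 17.3%). Without IUHT-H 1 it was 18.4% (all sites 19.9%) and without IUCL-H 1 17.6% (all sites 19.7%). Without IUCL-H 2, IUHT-H 2 or IUHT-H 3 it was 15.1%, 16.5% and 13.5% (all sites 17.8%, 18.1% and 17.2%). IUCL-H 3 was the lowest heifer at 16 of the 22 variable sites of the chromosome 25 stretch. The median without IUCL-H 3 is not given outside that stretch, so the part of the stretch in the rise is open. The groups did not overlap at 25 of 215 sites (11.6%), against 11.5% of all tested sites, a share near the background. All IUHT-H heifers were higher at 7 sites (3.26%, background 3.25%) and lower at 18 (8.37%, background 8.21%). The mean was higher in IUHT-H at 66 sites and lower at 149 (69.3%, against 59.0% of all tested sites), with a median difference of -6.30 points (all sites -0.74) and a median absolute difference of 9.42 points. All 22 variable sites of the chromosome 25 stretch were among the lower ones. Outside it the mean was lower at 127 of 193 (65.8%, against 58.8%), with a median difference of -5.13 points (all sites -0.73). The choice by range bears on the size of these differences, and nothing is read from their size. The direction is not given without IUCL-H 2, the heifer most often highest.

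The 3 largest group differences in each direction, among sites whose groups did not overlap, were as follows. At position 583223 of chromosome 14 the levels were 87.0%, 54.5% and 70.0% in IUCL-H 1 to 3 and 96.3%, 91.3% and 95.9% in IUHT-H 1 to 3. Position 30225732 of chromosome 29 had 42.1%, 55.2% and 28.6% in IUCL-H and 66.7%, 61.1% and 69.2% in IUHT-H. At position 8107949 of chromosome 3, inside the cluster described above, they were 48.0%, 19.0% and 26.3% in IUCL-H and 59.0%, 51.5% and 53.6% in IUHT-H. At these 3 sites the IUHT-H heifers were tightly grouped (SD 2.77 to 4.15 points) and the IUCL-H heifers spread (SD 13.3 to 16.2 points), so that much of the range lay within IUCL-H.

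Lower in IUHT-H was position 44686549 of chromosome 9, with 86.4%, 94.4% and 86.2% in IUCL-H and 68.8%, 51.3% and 59.3% in IUHT-H, a difference of group means of -29.2 points, the largest among sites whose groups did not overlap. At the stepped position 28618800 of chromosome 27, where the groups overlapped, the difference was -30.8 points. Position 13927421 of chromosome 3 had 69.2%, 57.1% and 69.0% in IUCL-H and 34.7%, 50.0% and 28.6% in IUHT-H, a difference of -27.4 points. At position 61283085 of chromosome 8 levels were 33.3%, 56.0% and 41.7% in IUCL-H and 21.4%, 23.5% and 12% in IUHT-H. No reads of the opposite strand reached the minimum at 5 of these 6 sites, and at position 30225732 of chromosome 29 the opposite cytosine differed by 0 between the same heifers.

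A read-level test called many more of these sites than heifer-level tests did. With logistic regression on pooled calls, a difference of 15 points or more and q of 0.2 or less over 18486 sites, 37 variable sites (17.2%) were differentially methylated cytosines, against 1.54% of all tested sites and 1.12% of those with 20 or more reads on chromosomes 1 to 29. Of these, 11 were higher in IUHT-H (5.12%, against 0.427% of all sites) and 26 lower (12.1%, against 1.11%), and 19 had groups that did not overlap. The rule selected sites with large ranges and this test does not count the spread between heifers of a group, so nothing is read from the excess. The share of all called sites whose groups did not overlap is not given here, so nothing is read from the 19 either. Of the 215, 0 were called by the edgeR quasi-likelihood test (background 0%), 0 by limma on log2 ratios (background 0.00541%, 1 site, higher in IUHT-H) and 0 by an overdispersion F test (background 0%). The F test also made no call in the check on simulated data, so its 0 says nothing about these sites. At an unadjusted p under 0.05, edgeR passed 33 variable sites (15.3%, against 4.5% of all sites) limma 23 (10.7%, against 5.01%) and the F test 8 (3.72%, against 1.62%). The choice by range bears on these shares too, and nothing is read from them. With 3 heifers against 3, an exact permutation test of 1 site cannot go below p = 0.1.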

How the data were processed

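The authors cut DNA with MspI and TaqαI, kept short fragments, read 50 bases from single ends and mapped them to UMD3.1.1; per the submitters' processing notes Trim Galore 0.4.4 and Bismark 0.17.0 were used. The paper's methods name earlier versions of both programs, and which were used could not be settled here. The authors deposited, per cytosine position, the count of methylated calls, the count of unmethylated calls and the percent methylated. Depth is the sum of the counts. No gene or sequence is given, because no annotation of this build was used here.

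The logistic likelihood-ratio test, an overdispersion F test, edgeR 4.0.16 and limma 3.58.1 (pseudocount 0.5) were run over 18486 sites with more than 10 reads in every heifer, with Benjamini-Hochberg adjustment. All were tested on simulated data, where the F test made no calls, edgeR nearly as many as logistic regression, and limma fewer. Simulated heifers of a group differed by counting noise alone, with 200 sites changed by 30 points. Real heifers spread more, so the simulated calls do not show what edgeR and limma could detect in these data. Strand partners were taken from runs of adjacent listed positions. The sites and lists were chosen with earlier results of these data known. Named were the stepped and the graded sites with the largest ranges (4 each), the 4 largest clusters, the 3 largest group differences in each direction and the 2 sites on each side of the threshold. Alternatives covered the depth and range minimums, bands, tests, thinning and leaving out each heifer.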

Additional observations from a re-analysis of the deposited data

How the results depend on the processing

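The number of variable sites depended on the minimums: 969 at more than 10 reads, 15 at 50 or more, 880 at a range of 25 points, 29 at 50 points and 63 of 842 (7.48%) when sites in the deepest 0.1% of any heifer's positions were left out. That depth limit was 46 to 66 reads by heifer. The 4 variable sites read most deeply exceeded it in every heifer. In the chromosome 25 stretch every variable site exceeded it in some heifer, except possibly position 32373991. There IUCL-H 1 had 56 reads, equal to its own limit. Both patterns thus rest on the deepest positions, and this setting cannot show whether they hold elsewhere. Stepped sites numbered 0 with narrower bands, 0 at 50 or more reads, 1 without the deepest positions and 8 to 17 without 1 heifer. Differentially methylated cytosines among the 215 numbered 0 by the F test (uninformative), 0 by edgeR, 0 by limma, 5 at 25 points (0.184% of all sites), 22 at q of 0.05 (0.563%), 2 without the deepest positions (0.467%), 2 when each heifer was thinned to 20 reads (0.048%), and 32 to 61 without 1 heifer (1.42% to 2.39%). The 61 were without IUCL-H 3 (1.71%), 22 of them among the 37, and 58 were without IUCL-H 1 (2.39%). The groups did not overlap at 0 of 15 sites at 50 or more reads (12.7% of all such sites), 0 of 29 at a range of 50 points, 6 of 63 without the deepest positions (9.26%) and 38 to 62 without 1 heifer, where 20% to 23.1% of all sites did not overlap; 62 was without IUCL-H 3 (28.8%, against 20.2% of all sites). Of the variable sites with IUCL-H 3 lowest, 16 lay in the chromosome 25 stretch, and the 62 is not split by that stretch. On the opposite strand 26 of 32 sites went the same way at 20 or more reads (63.1% of all such sites). Without 1 heifer the share ran from 58.2% (32 of 55, without IUCL-H 2) to 77.8% (42 of 54, without IUCL-H 1), against 56.9% to 60.1% of all sites. A gap of 10 kb gave 130 sites with a neighbor. The median between-group share was 7.62% over the 15 sites with 50 or more reads (16.3% over all such sites). Without 1 heifer it was 13.5% to 25.1% (17.2% to 19.9% over all sites). No paired analysis was possible because the labels give the heifers no replicate numbers and the paper describes no matching of heifers between groups. Replicate numbers alone would not have made pairs, since the paper states that dams were assigned to the treatments at random. Depth limits these values, as 141 of 215 sites had under 30 reads in the shallowest heifer.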

Other observations

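Liver of the bull calves was looked up at the variable sites where a calf had 10 or more reads, 23 to 120 sites per calf. The mean level was 49.4% ± 4.03 in IUCL-B (SD, n = 5) and 53.6% ± 8.88 in IUHT-B (n = 4), overlapping between groups. The sites counted differ between calves, and calves differed from heifers in tissue, sex, age and libraries, which cannot be told apart. Calf libraries held 307023 to 5958861 positions, against 7552567 to 9753540 in heifers. The read minimum was 10 in calves and 20 in heifers. Levels at or beyond 10% and 90% made up 30% to 74.4% of these sites per calf, and 47.4% to 74.9% of all tested sites per calf. Over all tested sites they made up 47.4% in IUCL-B 5 and 53.0% in IUCL-B 4, the calves with the most positions. In the other calves they made up 67.6% to 74.9%. In the heifers such levels made up 3.72% to 10.2% of the variable sites, a share that the range rule bears on, and 26.9% to 28.8% of all tested sites. In the chromosome 25 stretch the calves' means ran from 19.2% to 53.6%, over 4 to 25 sites each.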
